A study of Mus musculus with 8 samples.

Results

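Major urinary protein (Mup) genes encode small secreted carrier proteins of the lipocalin family, and 10 of them were examined here in mouse liver: Mup1, Mup3, Mup7, Mup9, Mup10, Mup11, Mup12, Mup17, Mup20 and Mup21. They were taken by gene symbol from a count table of 33212 genes, which also holds rows for 11 other Mup genes. Hepatocytes release these proteins into the blood, and they pass into the urine, where they carry volatile pheromones. In adult mice their transcription depends on the pulsed release of growth hormone and on androgen, so that male liver makes far more of them than female liver. Mup20 encodes darcin, the urinary protein of males that attracts females.

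RNA was sequenced from whole liver of 4 Nnmt KO mice and 4 control mice, as numbered in the sample titles, with 1 library each. The Nnmt KO mice carried the Alb-Cre transgene, which the albumin promoter drives in hepatocytes, in an Nnmt flox/flox background, and the control mice were Nnmt flox/flox animals that the sample labels call WT. All were males of a C57BL/6 strain fed for 8 weeks on a diet deficient in methionine and choline (the MCD diet), and their age is not given in the sources used here. The other cells of the liver keep Nnmt, which encodes nicotinamide N-methyltransferase, and no group on a standard diet was included, so all values below are of livers on the MCD diet. The columns of the count table carry the genotype alone, and libraries are therefore lettered a to d within a genotype, with no pairing between letters.

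Total counts ran from 75020072 to 87934362 per library. Counts are given as CPM (counts scaled to the library size) after scaling by edgeR's TMM factors, which were 0.876 to 1.06 in 7 libraries and 1.21 in Nnmt KO library a. Nnmt itself was at 31.8 to 83.0 CPM in the Nnmt KO libraries and at 84.9 to 224 CPM in the control libraries, so that the labels and the targeted gene ran the same way. For Nnmt, edgeR's test gave -1.28 on the log2 scale with an adjusted p of 0.123, and DESeq2's adjusted p was 0.00458. The 7 hepatocyte markers looked at were all detected, with a summed level of 66080 to 119866 CPM in Nnmt KO and 82060.5 to 127445 CPM in control libraries. The lowest of these 8 sums was that of Nnmt KO library a, which also had the highest sum of 7 stellate cell markers (801 CPM, against 336 to 510 CPM in the other 7 libraries) and of 6 cholangiocyte markers (285 CPM, against 52.0 to 180 CPM). Results are therefore also given without this library. In bulk liver RNA, fewer hepatocytes and less Mup RNA per hepatocyte cannot be told apart.

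The members, all protein-coding, lie on the minus strand of chromosome 4, between 60066469 and 62150863 (GRCm38, GENCODE M21), a stretch of 2084 kb. By their coding sequence they fall into 7 near-identical genes and 3 diverged genes. Mup1, Mup7, Mup9, Mup10, Mup11, Mup12 and Mup17 shared 98.35 to 99.63% of their coding bases with one another. Mup3, Mup20 and Mup21 shared 82.44 to 91.39% with those 7 genes and 87.07 to 94.77% among themselves. This matters for the counts, because a sequenced read can belong to any gene that holds its sequence. Coding bases 61 to 210 of Mup10, which is the length of 1 read, are shown with the aligned bases of a near-identical gene and of the 3 diverged genes from the GENCODE M21 transcripts, and capitals mark bases that differ from Mup10.
Mup10: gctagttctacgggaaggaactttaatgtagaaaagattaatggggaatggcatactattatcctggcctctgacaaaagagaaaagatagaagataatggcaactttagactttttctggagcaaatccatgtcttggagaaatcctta
Mup1: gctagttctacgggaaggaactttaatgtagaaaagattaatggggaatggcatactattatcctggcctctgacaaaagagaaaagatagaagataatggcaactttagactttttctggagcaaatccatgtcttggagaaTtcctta
Mup20: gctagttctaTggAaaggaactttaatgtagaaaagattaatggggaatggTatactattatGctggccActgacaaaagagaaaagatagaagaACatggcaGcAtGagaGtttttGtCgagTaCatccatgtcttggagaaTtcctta
Mup3: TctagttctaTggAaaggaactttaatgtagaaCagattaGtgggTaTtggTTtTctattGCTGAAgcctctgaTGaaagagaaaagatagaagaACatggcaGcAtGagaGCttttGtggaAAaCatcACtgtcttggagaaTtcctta
Mup21: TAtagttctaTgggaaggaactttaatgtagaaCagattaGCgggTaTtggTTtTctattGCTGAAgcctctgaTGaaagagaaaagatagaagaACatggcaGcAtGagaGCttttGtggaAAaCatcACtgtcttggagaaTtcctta
In this stretch Mup1 differed from Mup10 at 1 base, Mup20 at 16, Mup3 at 32 and Mup21 at 33.

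The share of a gene's own sequence was counted over all stretches of 150 bases in 1 coding transcript per gene, against the transcripts of every annotated Mup gene and pseudogene. Of the stretches of the 7 near-identical members, 15.55% (Mup10) to 59.64% (Mup17) occurred in no other Mup gene, and some occurred in up to 15 Mup genes. The share was 68.93% for Mup20, where each of the others occurred in 1 more Mup gene or pseudogene, and 100% for Mup3 and Mup21. Counts of the diverged members are thus less open to reads from other Mup genes. Counts of the 7 near-identical members depend on how reads with several matching genes were divided, which is not given in the sources used here. The summed count is firmer, as the division of reads within the sum does not change it. Reads shared with near-identical Mup genes outside the members could still pass into or out of a sum of members.

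The sequence before the start site was compared as well. RefSeq (GRCm38.p6) gives a promoter of 300 bases for 7 of the members, and none was given for Mup1, Mup12 and Mup20. Identity to Mup10 was taken over the bases that overlapped in the alignment, with overhanging ends left out, which is less than the 300 bases. Mup7, Mup9, Mup11 and Mup17 were 93.67 to 95.15% identical to Mup10 there, Mup3 was 76.16% and Mup21 73.74% identical. The stretches below hold 100 bases of each, starting 20 bases ahead of the outermost match to ATTGATT, the core motif bound by HNF6 (encoded by Onecut1), and capitals mark that motif, which reads AATCAAT on this strand.
Mup10, chr4:60582294-60582393, minus strand: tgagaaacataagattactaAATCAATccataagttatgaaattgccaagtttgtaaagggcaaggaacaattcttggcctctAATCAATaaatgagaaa
Mup11, chr4:60662505-60662604, minus strand: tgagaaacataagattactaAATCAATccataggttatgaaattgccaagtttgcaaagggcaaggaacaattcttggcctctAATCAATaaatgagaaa
Mup17, chr4:61595965-61596064, minus strand: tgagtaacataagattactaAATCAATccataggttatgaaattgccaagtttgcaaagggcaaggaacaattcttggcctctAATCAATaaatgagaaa
Mup7, chr4:60070479-60070578, minus strand: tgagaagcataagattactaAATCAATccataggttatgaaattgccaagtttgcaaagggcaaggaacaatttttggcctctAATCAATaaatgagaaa
Mup3, chr4:62087401-62087500, minus strand: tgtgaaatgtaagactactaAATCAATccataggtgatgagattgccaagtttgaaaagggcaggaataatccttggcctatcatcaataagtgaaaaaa
Mup21, chr4:62150919-62151018, minus strand: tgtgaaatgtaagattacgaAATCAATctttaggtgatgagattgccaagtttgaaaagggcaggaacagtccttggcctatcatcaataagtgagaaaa
Each of the 5 near-identical members with a promoter had 2 matches, 63 bases apart, and Mup3 and Mup21 had 1. The annotated start sites differed in place, as the outermost match lay 83 bases before that of Mup7 and 218 before that of Mup10. On either strand, ATTGATT was found in 14 of the 14 Mup promoters given and in 2.855% of all 32851 promoters of that length. As Mup promoters resemble one another, the 14 cannot be counted as separate occurrences. The STAT5 motif TTCNNNGAA (8.298% of all promoters) and the C/EBP motif TTGCNNAA (10.8%) were found in 0 of the 14, as was the HNF1 motif (0.009132%), and TATAAA (13.62%) was found in 2 of the 14 but in none of the 7 members. An absent match says only that these letters are not within these 300 bases, and no match in the members overlapped another motif.

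The 7 near-identical members had Nnmt KO means of 34.6 to 40.0% of the control mean, and the 3 diverged members of 66.3% (Mup3), 106% (Mup20) and 138% (Mup21). Mup10 (ENSMUSG00000078680, chr4:60578260-60582199), whose sequences are given above, was at 58.8, 214, 141 and 226 CPM in Nnmt KO libraries a to d and at 469, 490, 383 and 413 CPM in control libraries a to d. Every Nnmt KO library lay below every control library, and library a was the lowest. The means were 160 ± 77.0 CPM in Nnmt KO and 439 ± 49.4 CPM in control mice (SD, n = 4 each), which is -1.46 on the log2 scale (standard error 0.33, 95% confidence interval -2.18 to -0.73). The unadjusted p was 0.00100 and the adjusted p over all 15291 tested genes was 0.0909 (edgeR, quasi-likelihood test, Benjamini-Hochberg).
Mup11 (ENSMUSG00000073834, chr4:60658466-60662411) was at 49.4, 175, 120 and 199 CPM in Nnmt KO libraries a to d and at 413, 448, 308 and 356 CPM in control libraries a to d. Its groups did not overlap either, and library a was again the lowest. The difference was -1.49 on the log2 scale (standard error 0.34), and edgeR's adjusted p was 0.0911.

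The other 5 near-identical members had the same arrangement of libraries. Mup9 was at 18.7 to 77.5 CPM in Nnmt KO and 122 to 170 CPM in control libraries. Mup7 was at 9.35 to 39.0 CPM against 66.9 to 96.1 CPM. Mup1, which has been linked to glucose and lipid metabolism, was at 8.55 to 38.3 CPM against 58.4 to 80.3 CPM. These 3 genes had no Nnmt KO library that reached a control library. Mup17 was at 5.49 to 22.0 CPM against 33.7 to 47.9 CPM, and Mup12 at 2.57 to 12.0 CPM against 16.2 to 25.0 CPM.
Over the 7 near-identical members, log2 fold changes ran from -1.53 (Mup7) to -1.32 (Mup12). Groups did not overlap for 7 of 7, where 4.81% of all tested genes had Nnmt KO libraries that were all below the control libraries. All 7 had an unadjusted p under 0.05 (0.000978 to 0.00432), as had 7.13% of all tested genes in that direction, and the adjusted p in edgeR's test was 0.0907 (Mup17) to 0.158 (Mup12). By that test 0 of the 10 members therefore passed an adjusted p of 0.05, which 0.32% of all tested genes did.

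This call depended on the test and on a library. By the Wald test of DESeq2, the adjusted p was under 0.05 for all 7 near-identical members (0.000535 to 0.0449) and for 0 of the 3 diverged ones, where it called 3.35% of all genes. Without Nnmt KO library a, edgeR gave the 7 genes adjusted p-values of 0.0175 to 0.0376, with log2 fold changes of -1.25 to -1.02, and called 0.963% of all genes. In library a, the 7 members stood at 11.9 to 13.8% of their control means, and in the other 3 Nnmt KO libraries at 29.9 to 56.6%.

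For 0 of the 3 diverged members did the groups separate. Mup20 (ENSMUSG00000078672, chr4:62050234-62054158), the darcin gene, was at 483, 751, 596 and 906 CPM in Nnmt KO libraries a to d and at 503, 547, 795 and 742 CPM in control libraries a to d. The groups overlapped throughout, with the highest and the lowest value both in Nnmt KO. Its log2 fold change was 0.08 (standard error 0.21), and the 95% confidence interval of -0.39 to 0.55 does not include the difference estimated for Mup10 (edgeR's test, unadjusted p = 0.714, adjusted p = 0.906).
Mup3 (ENSMUSG00000066154, chr4:62083476-62087342) was at 29.2, 62.4, 57.9 and 108 CPM in Nnmt KO libraries a to d and at 82.6, 103, 92.8 and 110 CPM in control libraries a to d. Of its Nnmt KO libraries, 3 lay below the control range and library d lay within it. The log2 fold change was -0.59 (95% confidence interval -1.25 to 0.06, adjusted p = 0.438 in edgeR's test). Without Nnmt KO library d it was -0.96, the groups did not overlap, and the adjusted p was 0.166. Without Nnmt KO library a it was -0.35 (edgeR adjusted p = 0.501).
Mup21 (ENSMUSG00000066153, chr4:62147932-62150863) was at 4.18, 9.35, 8.80 and 23.8 CPM in Nnmt KO libraries a to d as against 6.01, 11.7, 9.68 and 5.98 CPM in control libraries a to d. Library d alone was above the control range. The log2 fold change of 0.47 had a 95% confidence interval of -0.49 to 1.42 (edgeR's test, adjusted p = 0.696) and was -0.16 without Nnmt KO library d.

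**Figure D1:**
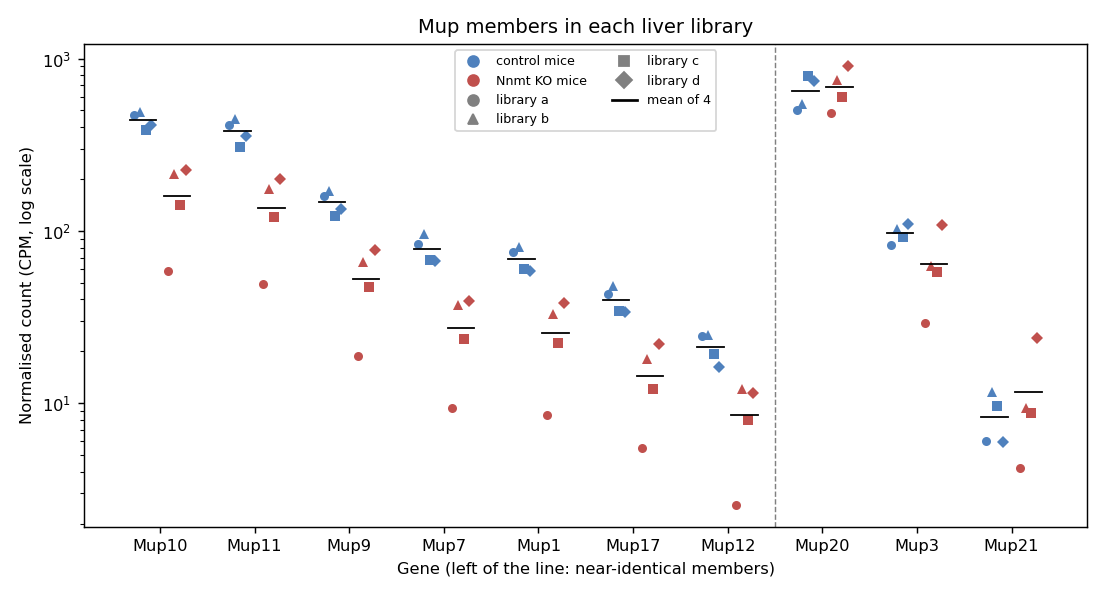
Normalised counts (CPM, log axis) of the 10 Mup members in the 4 control (blue) and 4 Nnmt KO (red) liver libraries, with symbols for libraries a to d and a black line at each group mean. The 7 near-identical members, left of the dashed line, have no Nnmt KO library that reaches a control library, and Mup20, Mup3 and Mup21 overlap.

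The difference between the near-identical genes and Mup20 could be tested within each library, where no scaling to other genes is involved. The log2 ratio of the Mup10 count to the Mup20 count was -3.04, -1.81, -2.08 and -2.01 in Nnmt KO libraries a to d, compared with -0.10, -0.16, -1.05 and -0.85 in control libraries a to d. The mean ratio was lower by 1.69 on the log2 scale in Nnmt KO mice, and all 4 Nnmt KO ratios lay below all 4 control ratios, also with library a left aside. The ratio of Mup10 to Mup3 differed by -0.89 and that of Mup10 to Mup21 by -1.88, again without overlap. Each of these 3 ratios had a p of 0.0286 in a two-sided exact permutation test, and groups of 4 against 4 can give no smaller p. Adjustment over the 3 could not change these equal p-values, and all 3 ratios share the Mup10 count. The pairs were chosen after the values of the genes had been seen, so the p-values only describe the separation.

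Taken as 1 quantity, the 10 members were at 669, 1377, 1038 and 1651 CPM in Nnmt KO libraries a to d and at 1861, 2019, 1893 and 1936 CPM in control libraries a to d. The control libraries were close together, and the highest Nnmt KO library was below the lowest of them. The sum was 1184 ± 425 CPM in Nnmt KO and 1927 ± 68.7 CPM in control mice (SD, n = 4 each), a difference of -0.70 on the log2 scale (standard error 0.23). The 7 near-identical members alone summed to 153, 554, 375 and 613 CPM in Nnmt KO libraries a to d and to 1269, 1358, 995 and 1078 CPM in control libraries a to d, a log2 fold change of -1.47 (standard error 0.34). Without Nnmt KO library a, the difference was -0.51 for the 10 members and -1.19 for the near-identical ones. The sum of the 3 diverged members was 760 ± 224 CPM in Nnmt KO and 752 ± 149 CPM in control mice (SD, n = 4 each), which is a log2 difference of 0.01 (standard error 0.22).
The 10 members took 0.0808 to 0.158% of all counts in Nnmt KO libraries and 0.177 to 0.206% in control libraries. Within their sum, the near-identical members made up 22.8 to 40.3% in Nnmt KO and 52.6 to 68.2% in control libraries. Mup20 made up 54.5 to 72.2% in Nnmt KO and 27.0 to 42.0% in control libraries. Mup3 was at 4.37 to 6.54% in both genotypes together. Within the members, Mup20 was thus the larger component in the 4 Nnmt KO libraries and the near-identical members in the 4 control libraries. Other near-identical Mup genes lie outside this sum, and the order did not hold in every Nnmt KO library once they were added. All near-identical genes together then exceeded Mup20 in Nnmt KO library b and, narrowly, in library d. Mup20 remained the larger in libraries a and c. Summed over all Mup rows, the level was 741, 1639, 1223 and 1954 CPM in Nnmt KO libraries a to d. Mup20 was at 483, 751, 596 and 906 CPM in them.

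**Figure D2:**
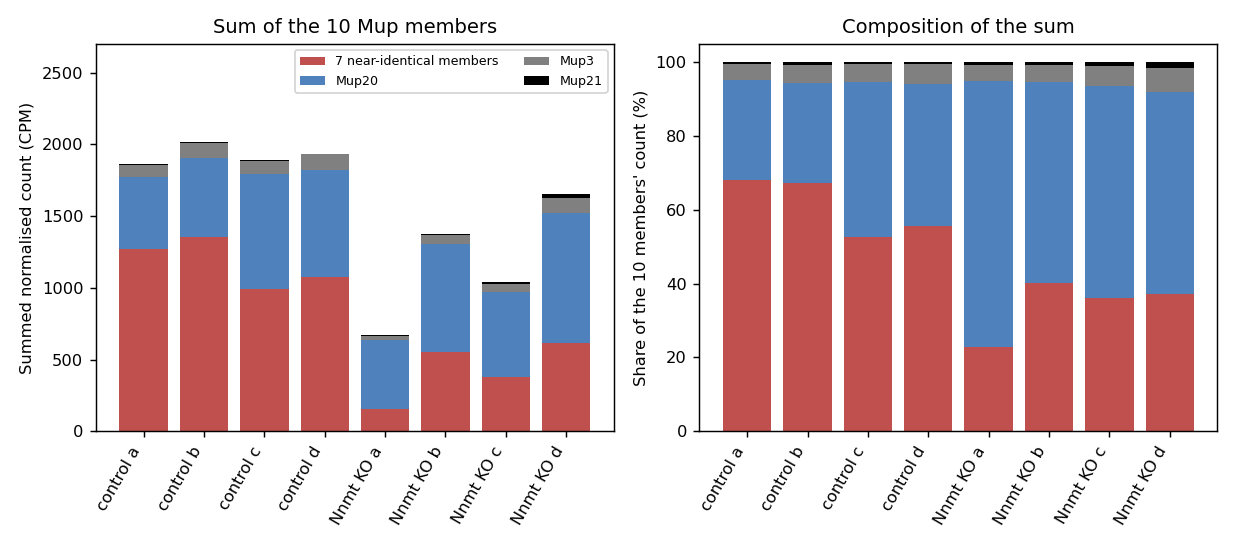
Left, summed normalised count (CPM) of the 10 Mup members in each library, stacked by the 7 near-identical members, Mup20, Mup3 and Mup21. Right, the same components as a share (%) of the members' count. The near-identical members hold 52.6 to 68.2% of the count in control and 22.8 to 40.3% in Nnmt KO libraries.

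Among the 7 near-identical members, counts were divided in nearly the same proportions in every library. Mup10 held 36.1 to 38.6% of their sum, Mup11 30.9 to 33.0% and Mup9 11.9 to 12.6%. Across the 8 libraries, the highest share of a gene was 1.06 times (Mup9) to 1.44 times (Mup12) its lowest, while the sum itself ranged over 8.89 times. With reads shared among them, the 7 fold changes cannot be counted as 7 separate measurements. When the 7 genes were replaced by their sum as 1 row in edgeR's test, 1 of the resulting 4 rows had an unadjusted p under 0.05 and 0 had an adjusted p under 0.05. With the 7 genes kept apart, 7.13% of all tested genes were lower by that unadjusted p and 0.32% passed the adjusted threshold. By DESeq2's test 1 of the 4 rows had an adjusted p under 0.05, as had 1 in edgeR's test without Nnmt KO library a. Again with the 7 genes apart, these 2 tests called 3.35% and 0.963% of all tested genes.

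**Figure D3:**
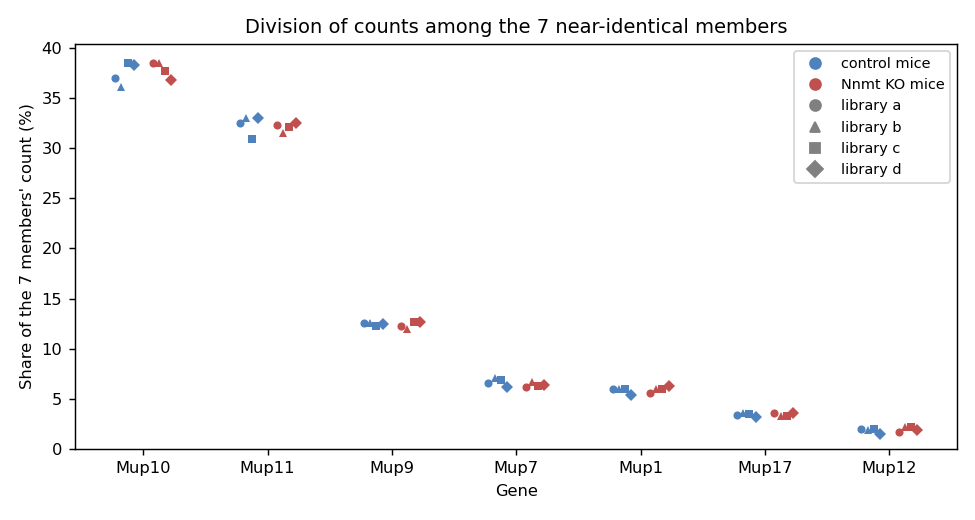
Share (%) of each near-identical member in the summed count of the 7, by library, with control in blue and Nnmt KO in red. The shares of a gene lie close together in all 8 libraries, between 36.1 and 38.6% for Mup10 and between 1.51 and 2.17% for Mup12.

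Per kilobase of exon, Mup20 had the highest level of the members in both genotypes, with 697 ± 155 CPM per kb in control and 737 ± 199 CPM per kb in Nnmt KO mice (SD, n = 4 each). Mup10 followed in control mice at 315 ± 35.5 CPM per kb and Mup11 at 242 ± 39.3 CPM per kb. Mup9 (97.8 ± 14.6), Mup3 (90.9 ± 11.2) and Mup7 (76.2 ± 13.5 CPM per kb) came next, and Mup9 and Mup3 differed by less than the SD of either. Mup1 (43.3 ± 7.03) and Mup17 (43.0 ± 7.46 CPM per kb) had nearly equal means, and Mup12 and Mup21 were the lowest at 23.0 and 12.3 CPM per kb. In Nnmt KO mice Mup3, at 60.3 ± 30.5 CPM per kb, had a higher mean level than Mup9, at 34.9 ± 17.1 CPM per kb. Per kb, Mup3 was the higher of the pair in each Nnmt KO library. The SDs overlapped, but they are between mice and do not measure a difference between genes of the same libraries. The exon length was merged over all transcripts of a gene. It was 1584 bases for Mup1 and 1499 for Mup9, but 927 for Mup17 and 1068 for Mup3. The order of these genes, and how near their levels lie, therefore depends on the length used. Levels of the near-identical genes also carry the unknown division of shared reads.

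Of the 11 other Mup genes with a row, 8 were tested, and all 8 belong to the near-identical kind. Mup2, Mup8, Mup13, Mup14, Mup15, Mup16, Mup18 and Mup19 had log2 fold changes of -1.48 to -1.34, with adjusted p of 0.0907 to 0.140 in edgeR's test. Groups did not overlap for 8 of 8, where 4.81% of all tested genes had Nnmt KO libraries that were all below the control libraries. An adjusted p under 0.05 was reached by 7 of the 8 in DESeq2's test, beside 3.35% of all tested genes. In edgeR's test without Nnmt KO library a it was reached by 8 of the 8, beside 0.963% of all tested genes. They share sequence with the members and are not counted as further measurements. Mup4 and Mup5 had 0 counts in every library, which allows at most 3 counts, or 0.0400 CPM before TMM scaling in the library where 3 counts weigh most. Mup6 had 4 counts, all in Nnmt KO library d. With all 21 Mup rows summed, the log2 fold change was -0.83 (standard error 0.25).

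**Figure D4:**
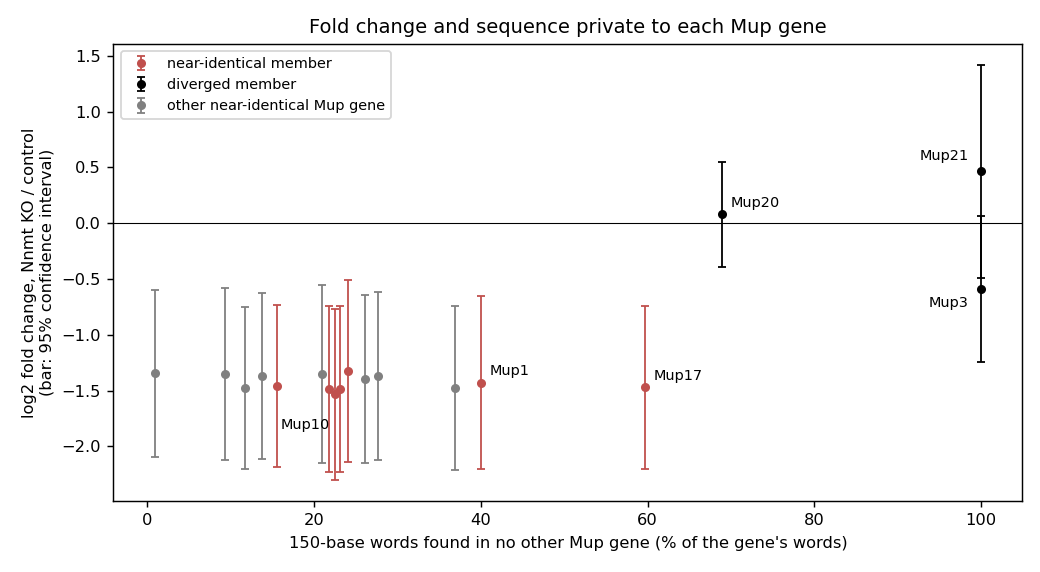
Log2 fold change between Nnmt KO and control mice, with its 95% confidence interval, against the share of a gene's 150-base stretches found in no other Mup gene, for 18 Mup genes. The near-identical members (red) and other near-identical Mup genes (grey) lie between -1.53 and -1.32 at any share from 0.900 to 59.64%, and Mup20, Mup3 and Mup21 (black) lie between -0.59 and 0.47.

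Genes beside the Mup cluster were described for comparison. Of 24 protein-coding genes that start within 1 Mb of the span of the members, 21 were tested, and their median log2 fold change was -0.06, beside 0.02 over all tested genes. Hdhd3 was lower at -0.67 (unadjusted p = 0.000415, adjusted p = 0.0711 in edgeR's test), Hsdl2, a peroxisomal dehydrogenase gene, was higher at 0.47 (unadjusted p = 0.00227) and Ptbp3, a splicing regulator gene, was higher at 0.32 (unadjusted p = 0.0357). By an unadjusted edgeR p under 0.05, 1 of the 21 was thus lower and 2 were higher, where 7.13% of all tested genes were lower and 5.45% higher. The other 18 tested neighbours had an unadjusted edgeR p above 0.05.

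Growth hormone acts on the liver through its receptor, the kinase JAK2 and the factor STAT5, and the genes of this pathway were listed beside the Mup genes. This list and those below were chosen with earlier results of these data known, so their counts only describe these data. Of 13 genes tested, 5 were higher and 1 lower by an unadjusted p below 0.05, where 5.45% of all tested genes were higher and 7.13% lower, and the list's median log2 fold change was 0.14. Cux2, a transcription factor gene expressed mainly in female liver, was at 2.92, 6.54, 9.55 and 5.20 CPM in Nnmt KO libraries a to d and at 1.36, 1.91, 0.749 and 0.904 CPM in control libraries a to d. It rose by 2.30 on the log2 scale (standard error 0.38, adjusted p = 0.0456 in edgeR's test) and was the only gene of the 13 past that threshold. Its adjusted p was 0.00906 without Nnmt KO library a and 0.0523 to 0.179 without any other library, so that 0 genes of the list passed in those 7 fits, with log2 fold changes of 1.99 to 2.60. Cish, a STAT5 target that feeds back on the receptor, had a log2 fold change of 0.62 without overlap (unadjusted p = 0.00503, adjusted p = 0.169 in edgeR's test). Socs2 and Igf1, both induced by growth hormone, and the prolactin receptor gene Prlr were the other 3 higher genes, with log2 fold changes of 0.61, 0.44 and 0.56 and groups that overlapped. Stat5a had one of -0.50 without overlap (unadjusted p = 0.0122, adjusted p = 0.240 in edgeR's test).

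Of 14 genes listed as regulators of Mup transcription, 2 were lower and 1 higher by the unadjusted p, where 7.13% of all tested genes were lower and 5.45% higher, and the median log2 fold change was 0.07. Cebpa, which encodes the liver factor C/EBPα, was at 173 ± 17.0 CPM in Nnmt KO and 268 ± 40.1 CPM in control mice (SD, n = 4 each), with a log2 difference of -0.63 (standard error 0.13, edgeR adjusted p = 0.0778). Its libraries did not overlap, nor did those of Foxa2, a forkhead factor gene, at -0.52 (adjusted p = 0.195 in edgeR's test). The higher gene, Zbtb20, had a log2 fold change of 0.48 with overlap. By edgeR's test 0 of the 14 genes passed an adjusted p of 0.05, and by DESeq2's 1 did.

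Since Mup genes belong to the genes that male liver expresses more highly, other genes with a known bias between the sexes were set beside them. Of 20 male-biased genes tested, 5 were higher and 2 lower by the unadjusted p, beside 5.45% higher and 7.13% lower over all tested genes, with a median log2 fold change of 0.10. Cyp4a12b, a fatty acid hydroxylase gene, rose by 1.24 on the log2 scale (adjusted p = 0.0496 in edgeR's test). With a library left out, its adjusted p was 0.0180 without Nnmt KO library a, 0.0344 without control library d and 0.0987 to 0.159 without any other. Selenbp2, C6 and Serpina12 were higher without overlap, with log2 fold changes of 0.95, 0.53 and 0.61 and adjusted p of 0.0711, 0.0711 and 0.183 in edgeR's test. Cyp4a12a and Cyp2u1, at 1.89 and -0.49, had groups that overlapped. Nudt7, which encodes a peroxisomal coenzyme A hydrolase, was lower without overlap at -0.52 (adjusted p = 0.119 in edgeR's test).
Of 19 female-biased genes tested, 10 were higher and 0 lower by the unadjusted p, against 5.45% and 7.13% of all tested genes, and the median log2 fold change was 0.96. An adjusted p under 0.05 in edgeR's test was reached by 6 of the 19, where 0.183% of all tested genes were higher past that threshold. The list was chosen with earlier results of these data known, so these counts are a description and not a test of the list. The cytochrome P450 gene Cyp3a16 rose by 2.84, the hydroxysteroid sulfotransferase genes Sult2a1 and Sult2a2 by 3.38 and 3.02, Cyp3a41a and Cyp3a41b by 2.42 and 2.39 and Prom1 by 1.95 on the log2 scale. Nipal1 also had no overlap, at 0.96 (adjusted p = 0.183 in edgeR's test). Sult2a1 and Cyp3a16 were at low levels in control mice, 0.321 and 0.604 CPM, and several of these genes have close copies between which shared reads could have been divided. The number past the adjusted threshold was 7 without Nnmt KO library a and 1 to 3 without any other library, the 1 being without control library a.

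**Figure D5:**
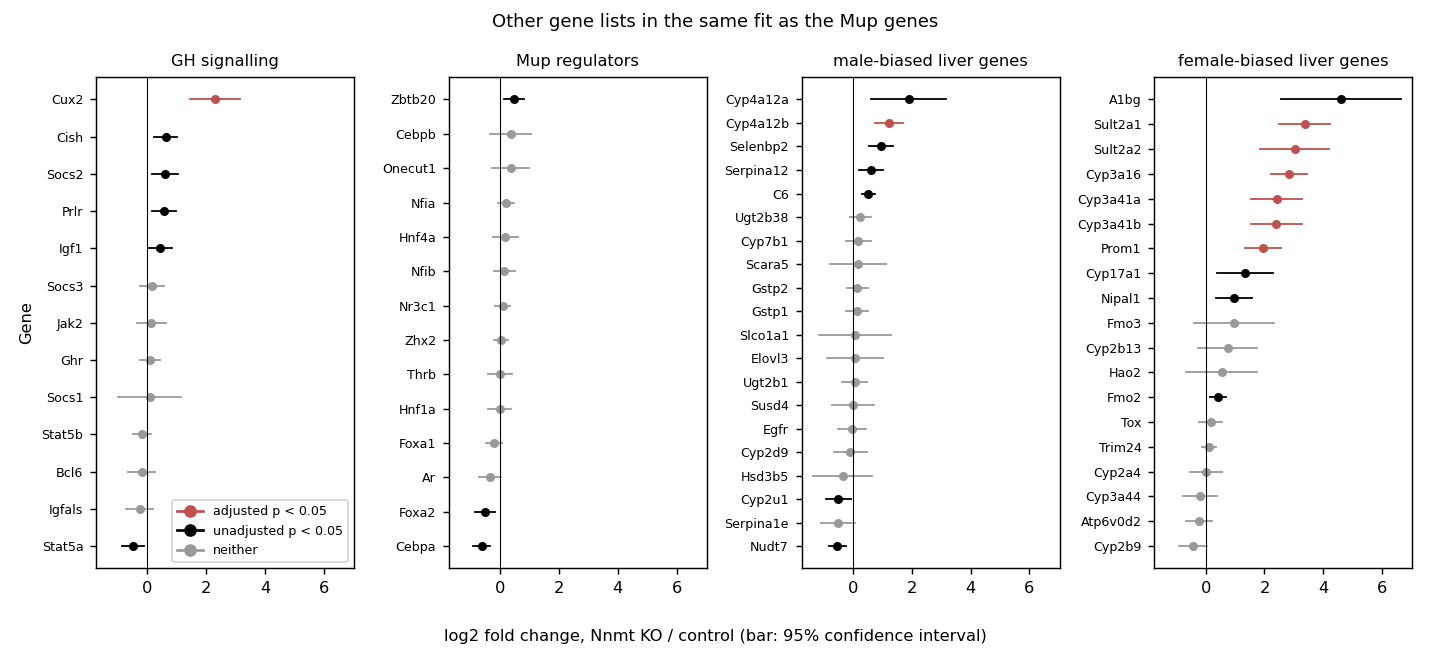
Log2 fold change between Nnmt KO and control mice with its 95% confidence interval for each tested gene of 4 lists, coloured by edgeR's test. Female-biased genes include 6 past an adjusted p of 0.05, the growth hormone list has 1 (Cux2), the male-biased list has 1 (Cyp4a12b) and the regulators have 0.

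Other lipocalins and other abundant secreted proteins of the liver served as a background for the Mup genes. Of 10 other lipocalin genes, 0 had an unadjusted p under 0.05 by edgeR's or DESeq2's test, and 1 had it in edgeR's test without Nnmt KO library a. Their log2 fold changes ran from -0.33 to 0.62, with a median of -0.05. Orm2, an acute phase protein gene, was at 273 ± 81.4 CPM in Nnmt KO and 225 ± 39.6 CPM in control mice (SD, n = 4 each), and C8g, a complement subunit gene, had a log2 fold change of -0.24. Of 20 abundant secreted proteins, 1 was lower at an unadjusted edgeR p under 0.05, where 7.13% of all tested genes were. The log2 fold changes of the 20 ran from -0.59 to 0.17 with a median of -0.29. That 1 gene was Hpx, which encodes the haem carrier hemopexin, at -0.57 without overlap (unadjusted p = 0.00916, adjusted p = 0.215 in edgeR's test), and Serpina1d was at -0.59 with overlap (adjusted p = 0.403 in edgeR's test). By DESeq2's test 7 of the 20 had an unadjusted p under 0.05, as had 14.2% of all tested genes in either direction, and 1 had an adjusted p under 0.05.

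Of the other cell types looked at, 0 of 7 macrophage and 0 of 6 endothelial markers had an unadjusted edgeR p under 0.05, while 3 of 7 stellate cell markers (Lrat, Reln and Dcn) and 1 of 6 cholangiocyte markers (Epcam) were higher. Lymphocyte and neutrophil markers numbered 0 of 6, and 1 of 7 hepatocyte markers, Cyp2e1, was lower. Of all tested genes, 5.45% were higher and 7.13% lower by that p. DESeq2's test gave 1 macrophage, 0 endothelial and 1 lymphocyte or neutrophil marker, where 14.2% of all tested genes had an unadjusted p under 0.05. Without Nnmt KO library a, 0 of the 7 stellate cell and 0 of the 6 cholangiocyte markers had an unadjusted edgeR p under 0.05, as had 0 of the macrophage, endothelial, lymphocyte and neutrophil markers and 3 of the 7 hepatocyte markers. In that fit 2052 of 15477 tested genes had such a p. The summed stellate markers were at 447 to 801 CPM in Nnmt KO and 336 to 510 CPM in control libraries, and the summed macrophage markers at 436 to 556 and 286 to 531 CPM. These ranges overlapped between the genotypes, and their part in the Mup values was not tested.

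The 5 protein-coding genes outside the members whose pattern over the 8 libraries was most like the summed Mup count were Apcs, Apoc1, Macrod1, Acsm1 and Prodh2, out of 13630 compared. Likeness was the root mean square difference of log2 CPM, each centred on its own mean, and was 0.203 to 0.229 for these genes. Their log2 fold changes between genotypes ran from -0.70 for Prodh2 to -0.41 for Apoc1, and in each of the 5 the lowest of the 8 libraries was Nnmt KO library a, as it was for the summed Mup count.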

How the data were processed

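The authors deposited 1 table of whole-number counts per gene, without normalization, with 8 columns named by genotype, all of which were used. The submitters' processing notes name HISAT2, StringTie and the mm10 build, and the paper names HISAT2 and paired-end reads of 150 bases. How reads that match several genes were divided, and whether strand was used, is not given in the sources used here. The paper and the labels name different library kits. Sample titles carry separate numbers, but no source ties a column to a mouse, so p-values measure the spread between these samples. The members and gene lists were chosen with earlier results of these data known.

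Genes passing edgeR's filterByExpr (minimum count 10) were kept, 15291 of 33212. Normalization by TMM and the quasi-likelihood test used edgeR 4.0.16 in R 4.3.3, with genotype as the only term and Benjamini-Hochberg adjustment over all tested genes. The standard error is the one implied by the F statistic. The sum over the 10 members was fitted as 1 row in place of the member rows, with no p. As an alternative count of calls, the 7 near-identical members were summed into 1 row and tested beside the 3 diverged ones. Total counts were 75020072 to 87934362 per library, at which 3 counts are at most 0.0400 CPM before TMM scaling, and this covers counting error only. Pairs of libraries of a genotype differed by more than sampling noise (chi-square per degree of freedom 42.2 to 263), so each counted as 1 replicate. DESeq2 1.42.0, other scalings, no filter and leaving out each library were the alternatives, and the edgeR steps were tested on simulated data.

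Positions, exon lengths (merged over transcripts) and coding sequences came from GENCODE M21, which held 31975 of the 33212 identifiers. Near-identical members are those with over 95% coding identity to Mup10. Promoters came from RefSeq (GRCm38.p6). All 10 members, the other Mup genes and Nnmt were named. From each other list the genes with an unadjusted p under 0.05 and no overlap of libraries were named, or the 2 with the smallest p where fewer passed. The 5 genes most like the summed count and the neighbours with an unadjusted p under 0.05 were named too. Lists were written from general knowledge, with earlier results of these data known. Socs2, Igf1, Prlr, Zbtb20, Cyp4a12a, Cyp2u1 and the cell type markers were named after their values were seen.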

Additional observations from a re-analysis of the deposited data

Results flagged for a closer look

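Within the groups of 4 libraries, 3 values stood far from the other 3 of their group, out of 106 groups looked at, where chance alone flags about 1 group in 20. In Nnmt KO mice, TMM scaling factors lay between 0.952 and 0.977 for libraries b to d and at 1.21 for library a, where the factor enters every CPM. Serpina1d, which encodes an alpha-1-antitrypsin, was at 865 CPM in Nnmt KO library a and at 1719 to 1743 CPM in the other 3 Nnmt KO libraries. Apcs, one of the genes most like the summed Mup count, was at 1237 CPM in control library b and at 883 to 915 CPM in the other 3 control libraries. None of the 10 Mup members, their sums or their ratios was flagged in this way.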

How the results depend on the processing

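No paired analysis was possible because the columns carry no mouse number. The log2 fold changes of the 7 near-identical members kept their direction under all 13 alternatives and all 7 passed an adjusted p of 0.05 under 2 of them, DESeq2's Wald test and without Nnmt KO library a, so that 7 members passed there and 0 elsewhere (range over left-out libraries 0 to 7). With a library left out, Mup20 ran from -0.085 (without Nnmt KO library d) to 0.22 and was at -0.0035 without control library a, Mup21 from -0.16 (without Nnmt KO library d) to 0.75, and Mup3 from -0.96 (without Nnmt KO library d) to -0.35 (without Nnmt KO library a). The summed count of the 10 members ran from -0.91 to -0.51 and that of the near-identical members from -1.70 to -1.19 with a library left out, and the Mup10 to Mup20 ratio, an alternative added after seeing the data, from -1.87 to -1.43. Nnmt (edgeR adjusted p = 0.123) passed the adjusted threshold only with DESeq2's test, at -1.28, which is 1 of the 13 alternatives (adjusted p 0.00458 to 0.296 over them). The difference in the share of all counts was -0.07 percentage points for the members and -0.10 with all Mup rows.

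Among the lists, secreted proteins past an unadjusted p of 0.05 numbered 7 with scaling by library size alone and 7 with DESeq2's test, and 1 to 5 with a library left out. Other lipocalins numbered 0 to 1. Past the adjusted threshold, growth hormone genes numbered 0 without a filter on low counts, 2 with DESeq2's test and 0 to 2 with a library left out. Male-biased genes numbered 0 with DESeq2's size factors, 0 without a filter, 5 with DESeq2's test and 0 to 3 with a library left out, and female-biased genes 2 without a filter and 1 to 7 with a library left out. Without a filter 20798 genes were tested. Why the other counts moved was not tested. With 3 mice against 4, an exact permutation test cannot go below 0.0571, so the ratios were not tested with a library left out.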
